A study of Mus musculus with 6 samples.

Results

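The genes described here encode the proteins of the cytosolic ribosome, and they were followed in the heart ventricles of dystrophic mice with and without finerenone, a non-steroidal antagonist of the mineralocorticoid receptor. Members were the rows of the array table whose platform annotation gave 1 distinct gene symbol of the Rps, Rpl or Rplp series or Rpsa, with symbols that end in -ps and a number (named pseudogenes) and the Rps6k kinases left out. Rpl6l stayed in by its symbol, although RefSeq lists it as a pseudogene. This gave 38 genes out of 30142 named genes, 15 with small-subunit symbols and 23 with large-subunit symbols. Where a gene had several rows, which held for 5 of the 38, the brightest row on average was taken.

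The study used male mice that lack dystrophin (the mdx allele) and carry 1 working utrophin allele (utrn+/-; mdx, called "Het") on the C57BL/10 background. The finerenone group was 3 mice fed chow with finerenone at 100 ppm, begun at 4 weeks, and 3 untreated mice ate the same chow with none added. All 6 were 20 weeks old at collection, and mice had been put into the groups at random. Both groups carried the same alleles, so no wild-type heart enters any comparison, and each mouse was measured on its own Affymetrix array. The labels call the 3 mice of a group biological replicates.

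A ribosome is built from a small subunit, which holds the mRNA and reads its codons, and a large subunit, which joins amino acids and lets the new chain out through a tunnel. Most ribosomal proteins are made in step with each other and put together with ribosomal RNA in the nucleolus. Their mRNAs are short, very abundant and begin with a run of pyrimidines (the 5′ TOP element), through which the mTOR kinase and the protein Larp1 control their translation. A few positions have a second gene used in particular tissues, such as Rpl3l, which stands in for Rpl3 in heart and skeletal muscle.

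Because these promoters share known elements, stretches of them are shown before the values. RefSeq promoter sequences (GRCm38.p6, 250 bases before to 50 after the annotated start) matched 32 of the 38 genes. The letters CCGGAAG on either strand, the core recognised by ETS factors such as Gabpa, were in the promoters of 15 of these 32 genes (46.9%), against 9.9% of 27025 genes with a promoter sequence. Not all of these genes are printed, and the group differences of those left out ran from -0.01 (Rpl39l) to 0.77 (Rpl35) on the log2 scale. The following 6 stretches carry the core near or upstream of the start, with the match in capitals, and include the gene with the largest group difference, Rps27l.
Rps27l, chr9:66946070-66946105, + strand: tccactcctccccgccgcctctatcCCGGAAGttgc
Rpl38, chr11:114668546-114668581, + strand: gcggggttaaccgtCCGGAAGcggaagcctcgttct
Rps7, chr12:28635946-28635981, - strand: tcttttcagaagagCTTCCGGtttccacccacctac
Rpl19, chr11:98026657-98026692, + strand: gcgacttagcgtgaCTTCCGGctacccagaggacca
Rps10, chr17:27635252-27635287, - strand: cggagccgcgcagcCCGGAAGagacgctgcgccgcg
Rpsa, chr9:120127564-120127599, + strand: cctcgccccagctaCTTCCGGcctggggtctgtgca

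A run of at least 6 pyrimidines that overlapped the first 10 transcribed bases was found for 13 of the 32 genes (40.6%), against 20.2% of all genes with a promoter. Such a run could open before the annotated start, as in Rps9, Rps24, Rps10 and Rps18, so a match is not by itself a TOP element. Whether these mRNAs begin with one was not tested. The 5 stretches that follow run from 20 bases before the annotated start to 15 after it, with the run in capitals.
Rps9, chr7:3704021-3704055, + strand: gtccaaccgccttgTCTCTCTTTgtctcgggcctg
Rps24, chr14:24490658-24490692, + strand: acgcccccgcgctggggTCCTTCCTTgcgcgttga
Rps10, chr17:27635230-27635264, - strand: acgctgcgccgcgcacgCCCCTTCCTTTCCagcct
Rps18, chr17:33955651-33955685, - strand: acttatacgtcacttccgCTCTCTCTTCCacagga
Rpl32l, chr10:20208419-20208453, + strand: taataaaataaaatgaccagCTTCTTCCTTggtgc

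Of the other motifs searched on both strands, AAGATGGC, a core of YY1 sites, was in 3.1% of the member genes and 3.2% of all genes, while 17.4% of 69 mitochondrial ribosomal protein genes held it. GGGCGG, the core of SP sites, was in 16 of the 32 member genes and in 38.2% of all genes. The pyrimidine run can overlap the reverse form of the ETS core, and a match to letters is a description of the window, not a site of binding. The 15 genes with the ETS core had a median group difference of 0.27 and the 17 without it one of 0.34, on the log2 scale. These medians include 6 genes whose row taken lies on another chromosome than the gene and its promoter. Rpl31, Rpl35 and Rpl41 of these have the core, and Rpl7a, Rpl12 and Rpl27 do not.

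Signal from these genes was higher in treated hearts for 37 of the 38, but no single gene passed the test. The median log2 difference, finerenone minus untreated, was 0.27 over the members and 0.03 over all 30142 genes. Differences ran from -0.01 for Rpl39l to 0.94 for Rps27l, with standard errors of 0.10 to 0.31. In limma, with Benjamini-Hochberg adjustment over all genes, 0 of 38 members passed 0.05, and percent called over all genes was 0. The smallest adjusted p of a member was 0.597, which was also the smallest of any gene. At an unadjusted p below 0.05, limma had 10 of 38 members higher (26.3%) and 0 lower, where 5.69% of all genes were higher, 2.12% lower and 7.81% either. Among other genes with a mean of at least 8 and a RefSeq span under 5 kb, 22.8% were higher at that p. That count of 10 went down to 6 after quantile normalization, where 4.19% of all genes were higher at that p. With finerenone replicates 1, 2 and 3 dropped in turn it was 5, 2 and 15, against 4.15%, 3.94% and 7.2% of all genes. With untreated replicates 1, 2 and 3 dropped in turn it was 4, 18 and 4, against 4.5%, 6.7% and 4.43%. Of all genes, 58.2% had a difference above 0. Members with a difference above 0 numbered 33 with quantile-normalized values, 35 with cyclic loess and 36 once arrays were centred on their medians.

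**Figure D1:**
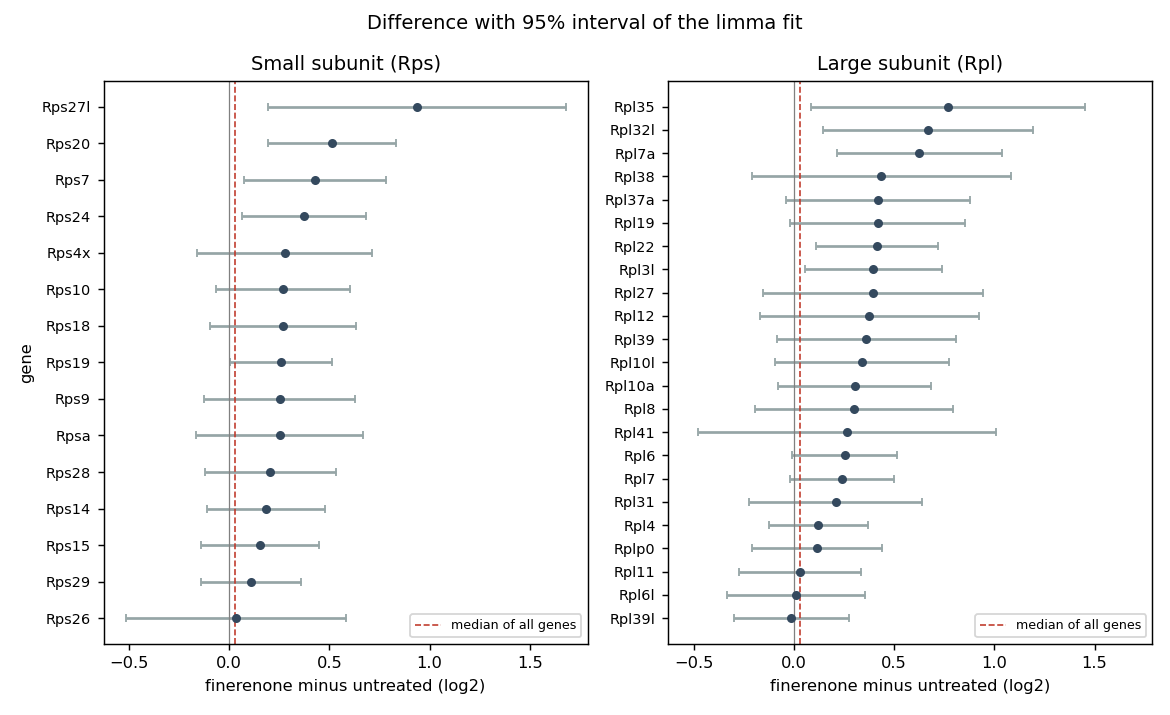
Each point is the finerenone minus untreated difference of 1 gene on the log2 scale (x axis), with the 95% interval of the limma fit over 3 mice per group, for small-subunit symbols on the left and large-subunit symbols on the right. The dashed line is the median of all genes (0.03), and 10 of the 38 intervals lie wholly above 0, led by Rps27l, Rpl35 and Rpl32l in size.

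The 6 arrays did not divide cleanly by group. Taken as the deviation from each gene's own mean over the arrays, the members' median was 0.25, 0.29 and -0.04 in finerenone replicates 1, 2 and 3. It was -0.32, 0.08 and -0.18 in untreated replicates 1, 2 and 3, so untreated replicate 2 lay above finerenone replicate 3. Untreated replicate 1 gave the lowest value for 26 of the 38 genes and untreated replicate 3 for 8, while finerenone replicate 2 gave the highest for 20 and finerenone replicate 1 for 15. Over all other genes, untreated replicate 1 was lowest for 23.5% and finerenone replicate 2 highest for 22.6%. Without untreated replicate 1 the members' median difference was 0.19, and without untreated replicate 2 it was 0.40. Groups did not overlap, with finerenone higher, for 6 members (15.8%), where this held for 8.17% of all genes; no member had finerenone wholly lower, against 4.18% of all genes. The 6 genes are Rps7, Rps19, Rps20, Rpl3l, Rpl7a and Rpl22. For Rpl7a this held only in the row taken, since its groups overlapped in the row on the gene's own chromosome.

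**Figure D2:**
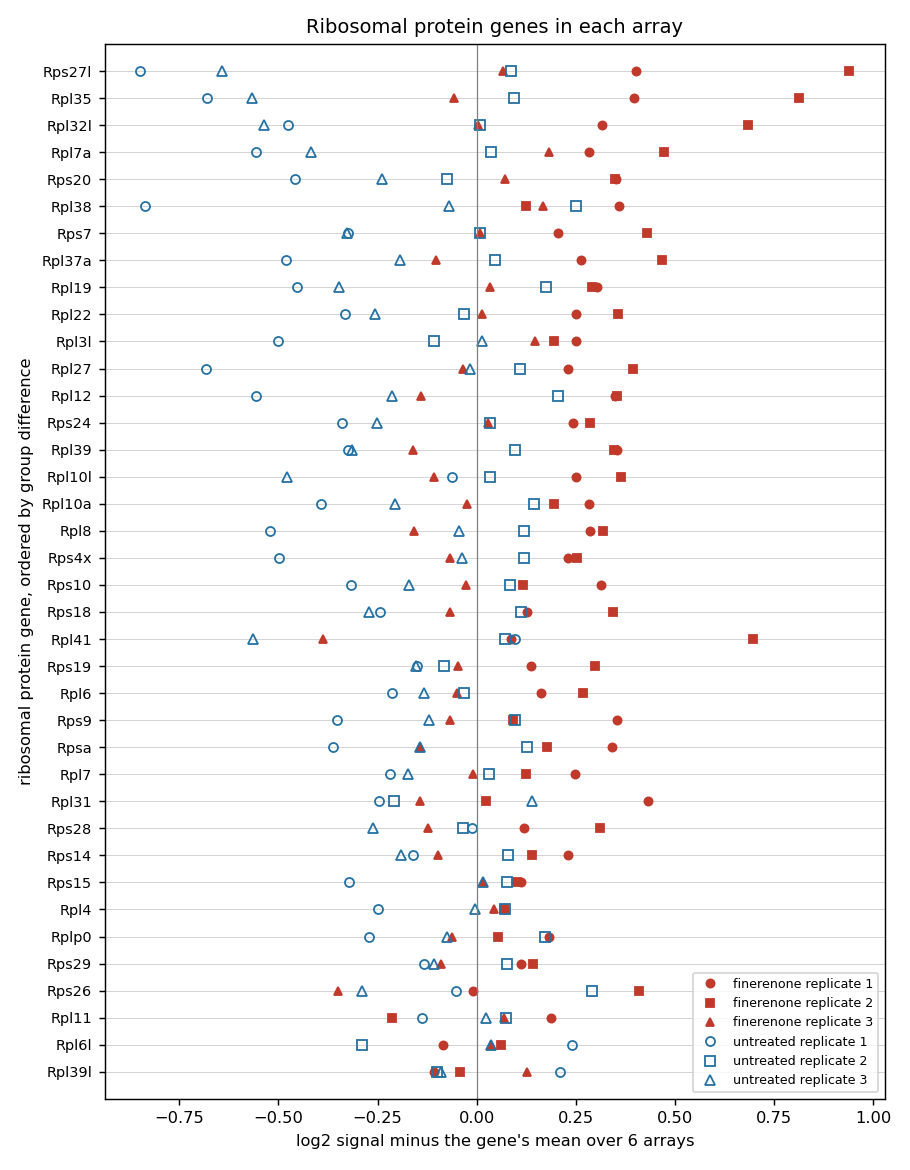
Each row is 1 ribosomal protein gene, ordered by its group difference, and the x axis is the log2 signal of an array minus that gene's mean over the 6 arrays, with filled red symbols for finerenone and open blue ones for untreated mice. Open circles (untreated replicate 1) form the left edge for 26 of 38 genes, and untreated replicate 2 (open squares) often lies among the treated arrays.

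In the small subunit all 15 members had a difference above 0 (median 0.26), and 3 (20.0%) had groups that did not overlap, with finerenone higher. This held for 8.17% of all genes, and for 19.3% of other genes with a mean of at least 8 and a RefSeq span under 5 kb. Rps20, a protein of the head of the subunit, measured 9.69, 9.69 and 9.41 in treated and 8.88, 9.27 and 9.10 in untreated hearts. Every treated array lay above every untreated one, and the difference of 0.51 ± 0.13 (SE) had the smallest unadjusted p of the members (limma, 0.00725, adjusted 0.597). Rps7, which is needed to process the small-subunit RNA, measured 16.45, 16.67 and 16.25 against 15.92, 16.25 and 15.92. Its lowest treated and highest untreated arrays touched at 16.25, and the difference was 0.43 ± 0.15. Rps19, the gene most often mutated in Diamond-Blackfan anaemia, measured 6.51, 6.67 and 6.33 against 6.22, 6.30 and 6.22. Here the groups lay apart by a narrow margin, with a difference of 0.26 ± 0.11, at a signal that stayed under the 95th percentile of the negative controls (8.35 to 8.73) in all 6 arrays. The same low signal held for Rps9, Rps14, Rps18, Rps28, Rpl6, Rpl7, Rpl10l, Rpl11 and Rpl39l.

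Rps24, which also belongs to the Diamond-Blackfan genes, measured 9.18, 9.22 and 8.96 in treated hearts and 8.60, 8.97 and 8.68 in untreated ones. Untreated replicate 2 lay just above the lowest treated array, so the groups overlapped, and the difference was 0.37 ± 0.13 (SE). Rpsa, a protein of the subunit's back that was first described as a laminin receptor, averaged 13.59 ± 0.25 against 13.34 ± 0.25 (SD, n = 3 each), with groups that overlapped. Of the 14 Diamond-Blackfan genes listed, 9 were among the members, all 9 with a difference above 0 and a median of 0.26. Rps4x, the X-linked gene of its position, averaged 12.60 ± 0.18 against 12.32 ± 0.32 and differed by 0.28 ± 0.18 (SE).

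At the other end of the small subunit, Rps26, a protein of the mRNA exit channel, measured 16.21, 16.63 and 15.87 in treated and 16.17, 16.51 and 15.93 in untreated hearts. The 2 groups covered nearly the same range, the difference was 0.03 ± 0.23 (SE), and its sign turned to -0.21 after quantile normalization and -0.04 after cyclic loess. Rps29 differed by 0.11 ± 0.10 and by -0.07 after quantile normalization. Rps28 was the dimmest small-subunit row, with 5.49 to 5.92 in treated and 5.35 to 5.60 in untreated hearts, close to the negative control probe sets, whose medians were 5.04 to 5.33 across arrays.

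Rps27l, a second gene for the position of Rps27 and a known target of p53, had the widest difference of all members. It measured 11.50, 12.04 and 11.16 in treated hearts against 10.25, 11.19 and 10.46 in untreated ones. Untreated replicate 2 lay just above finerenone replicate 3, so the groups overlapped, and the spread within groups was also among the largest (SD of 0.44 and 0.49, n = 3 each). The difference was 0.94 ± 0.31 (SE), or 1.91-fold (limma, unadjusted p = 0.0209, adjusted 0.597), and leaving out each array in turn gave 0.70 to 1.21. Rps27 itself shares its rows with another symbol, so the pair could not be set side by side.

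In the large subunit 22 of 23 members had a difference above 0, with a median of 0.34. Rpl35, which sits beside the exit tunnel, measured 16.25, 16.67 and 15.80 in treated and 15.18, 15.95 and 15.29 in untreated hearts. The groups overlapped through untreated replicate 2, and the difference was 0.77 ± 0.28 (SE). Rpl7a, an RNA-binding protein of the large subunit, measured 12.90, 13.09 and 12.79 against 12.06, 12.65 and 12.19. In the row taken, which lies on another chromosome than the gene, all treated arrays were above the untreated ones. The difference was 0.63 ± 0.17 (limma, unadjusted p = 0.00920, adjusted 0.597). In the row on the gene's own chromosome the groups overlapped, with 11.97 in finerenone replicate 3 and 11.98 in untreated replicate 2.

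Rpl22, which is dispensable for most translation and binds other RNAs as well, measured 8.43, 8.54 and 8.19 in treated and 7.85, 8.15 and 7.92 in untreated hearts. The groups did not overlap, and the difference was 0.41 ± 0.13 (SE). Its signal exceeded the 95th percentile of the negative controls in only 2 of the 6 arrays. Rpl38, known for its part in the translation of Hox mRNAs, measured 11.29, 11.05 and 11.10 against 10.09, 11.18 and 10.86. Its difference of 0.44 ± 0.27 was 0.13 without untreated replicate 1, the 1 array that lay far below the rest. Rpl39, a small protein inside the exit tunnel, averaged 11.04 ± 0.30 against 10.68 ± 0.24 (SD, n = 3 each).

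Rpl3l, the muscle gene at the position of Rpl3, measured 11.20, 11.15 and 11.10 in treated and 10.45, 10.85 and 10.97 in untreated hearts. The treated arrays lay close together (SD 0.05) and above all untreated ones. The difference was 0.40 ± 0.14 (SE), or 1.32-fold, with an unadjusted p of 0.0298 and an adjusted p of 0.607 in limma, and it was 0.24 without untreated replicate 1. Its partner Rpl3 lies in a row with several symbols and was not named. The testis-type genes Rpl10l (mean 4.40) and Rpl39l (mean 4.28) lay below the median of the negative controls in all 6 arrays, so their differences of 0.34 and -0.01 are differences near background. Rpl39l was therefore not set against Rpl39.

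Several other large-subunit members had differences no larger than about their standard errors. Rplp0, the base of the stalk that recruits elongation factors and a common reference gene, measured 13.05, 12.92 and 12.80 in treated and 12.59, 13.04 and 12.79 in untreated hearts. These ranges overlapped almost fully, with a difference of 0.12 ± 0.13 (SE) that was -0.01 after quantile normalization. Rpl4, which lines the exit tunnel, measured 18.18, 18.18 and 18.16 against 17.87, 18.19 and 18.11, a difference of 0.12 ± 0.10. Rpl11, which with 5S RNA binds the p53 ligase Mdm2, differed by 0.03 ± 0.13, and its sign changed with single arrays left out. Rpl6l, the pseudogene among the members, differed by 0.01 ± 0.14 and had its highest value, 11.35, in untreated replicate 1; its sign was negative under all 3 other scalings.

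The brightest rows were those of Rpl41, Rpl4 and Rpl12, with means of 18.32, 18.12 and 17.65. The highest value in the table is 19.93, and 1 of the 228 member values, that of Rpl41 in finerenone replicate 2 (19.01), came within 1 log2 unit of it. No member had a mean that close. Rpl41, which encodes the shortest ribosomal protein, measured 18.40, 19.01 and 17.93 in treated and 18.41, 18.39 and 17.75 in untreated hearts. Its difference of 0.26 ± 0.31 (SE) was -0.02 without finerenone replicate 2. Rpl12, at the stalk base, differed by 0.38 ± 0.23. The levels of different rows cannot be ranked as RNA amounts, since each row has its own probes and the members, which are used in near-equal numbers in a ribosome, spanned 4.28 to 18.32.

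Not every row lies at its gene. For 6 members (Rpl7a, Rpl12, Rpl27, Rpl31, Rpl35 and Rpl41) the row taken has an identifier on another chromosome than the RefSeq gene, as for a processed copy of the gene, while 99.7% of 30055 rows of other genes lay on the same one. Rpl27 averaged 13.33 and 12.94 in that row and 7.07 and 6.77 in the row on its own chromosome, with differences of 0.39 and 0.30. Rpl41 differed by 0.26 in the row taken and by 0.02 in its own, Rpl35 by 0.77 and 0.56, and Rpl7a by 0.63 and 0.48. Signals of such genes and of their many near-identical copies cannot be separated with certainty. With rows on the own chromosome only, which left out Rpl12 and Rpl31, the median over 36 members was 0.27, and 35 were above 0. Rpl32l, a copy of Rpl32 (15.41, 15.78 and 15.10 in treated against 14.62, 15.10 and 14.56 in untreated hearts), differed by 0.67 ± 0.22 (SE), with groups that overlapped slightly.

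The 38 genes are a share of the ribosome. Of 79 standard ribosomal protein genes (32 of the small and 47 of the large subunit) 32 were members, 37 were listed only in rows with several symbols and 10 were not analysed here. In the 53 rows that list a ribosomal protein gene beside pseudogenes, small nucleolar RNAs or other genes, 52 had a difference above 0 and the median was 0.27. The members of protein families found in all kingdoms of life numbered 15 and had a median of 0.25, and the other 17 standard members one of 0.36.

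A shift of this size was not seen in ribosomal proteins alone. Short, bright genes had higher signal in treated hearts in general. Among the other genes with a mean of at least 8 and a RefSeq span under 5 kb, 2187 in number, 80.1% had a difference above 0. Their median was 0.24, where the 22 members of that kind had a median of 0.30. Only the 38 members were left out of these and the following classes of other genes. Ribosomal protein pseudogenes and mitochondrial ribosomal protein genes were not removed from them. At an unadjusted p below 0.05 in limma, 22.8% of these other genes and 22.7% of these 22 members were higher. Groups did not overlap, with finerenone higher, for 19.3% of these other genes and 9.09% of these 22 members. By level alone the medians were further apart. They were 0.25 for 7 members and 0.03 for 4986 other genes at means from 6 to 8, and 0.34 for 6 members and 0.03 for 3019 others from 8 to 10. From 10 to 12 they were 0.41 for 6 members and 0.07 for 1501 others, and at 12 or more 0.29 for 16 members and 0.16 for 1815 others. Below 6 they were 0.21 for 3 members and 0.02 for 18783 others. Of the 38 members 31 had a span under 5 kb. These differences between the members and other genes were not tested.

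**Figure D3:**
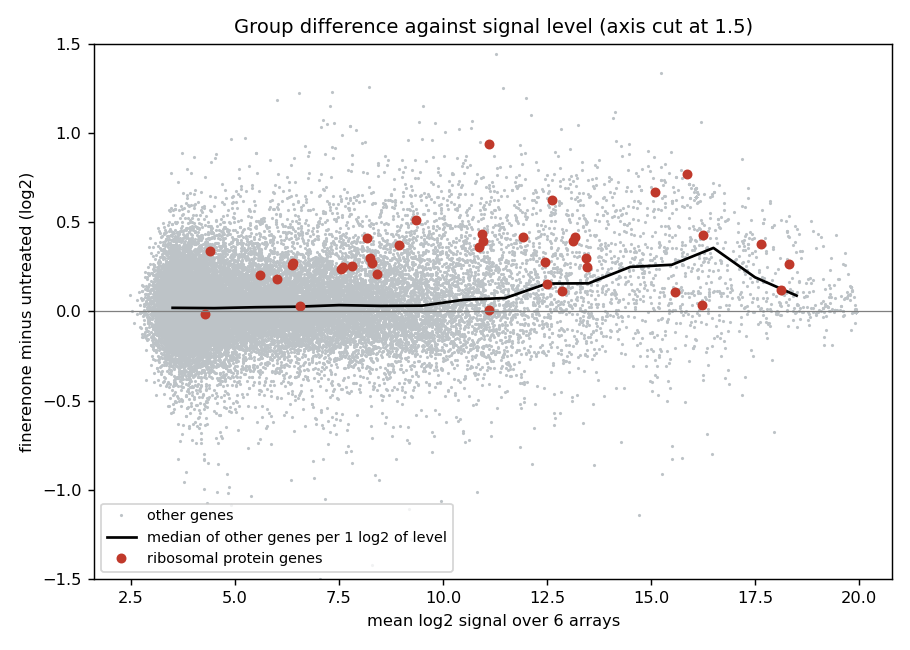
Each grey point is 1 gene outside the 38 members, with mitochondrial ribosomal proteins and ribosomal protein pseudogenes included. Its mean log2 signal over the 6 arrays is on the x axis and its finerenone minus untreated difference (log2) on the y axis. Red points are the 38 ribosomal protein genes, and the black line is the median of the other genes in steps of 1 log2 unit. The line stays close to 0 at low signal and is higher among bright genes, where most red points lie at or above it; 11 genes lie outside the plotted range.

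The mitochondrial ribosome gave values much like those of the cytosolic one. Of 75 mitochondrial ribosomal protein genes 72 had a difference above 0, with a median of 0.28, and 14 of them (18.7%) were higher at an unadjusted p below 0.05 in limma, against 5.69% of all genes. Mrps31 averaged 9.40 ± 0.04 against 8.95 ± 0.14 and Mrps30 9.01 ± 0.04 against 8.62 ± 0.14 (SD, n = 3 each). Of 38 proteasome subunits, which form the protease that degrades ubiquitin-tagged proteins, 31 were above 0 (median 0.18). At an unadjusted p below 0.05 in limma, 8 of these 38 (21.1%) were higher. After adjustment limma called 0 genes of either list (smallest adjusted p = 0.597).

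The remaining parts of the translation machinery were read from lists, in which limma again passed 0 genes after adjustment. Of 17 measured genes with TOP mRNAs that are not ribosomal proteins, 16 were above 0 (median 0.31), against 58.2% of all genes. At an unadjusted p below 0.05 in limma 6 (35.3%) were higher, where 5.69% of all genes were. The list was bright, with a median level of 12.6. Among genes other than the members with a mean of 12 or more, 19.8% were higher at that p. Npm1 (nucleophosmin) differed by 0.43 ± 0.13 (SE), and Eif3l, a subunit of initiation factor eIF3, by 0.51 ± 0.14. Of 27 initiation factors 20 were above 0, with a median of 0.05 and 5 (18.5%) higher at that p, against 5.69% of all genes. Eif3k was among these 5 (0.61 ± 0.22). Elongation and release factors had 7 of 9 above 0 and a median of 0.14, with Eef1d at 0.31 ± 0.13. Eif5a, which helps ribosomes through runs of proline, was lower in all treated arrays (11.11 to 11.22 against 11.26 to 11.89), a difference of -0.48 ± 0.17.

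Genes that build ribosomes or set their output stood nearer to the median of all genes. Of 40 assembly factors 27 (67.5%) were above 0, near the 58.2% of all genes, with a median of 0.05. At an unadjusted p below 0.05 in limma 3 of them (7.5%) were higher, near the 5.69% of all genes, with Nhp2 at 0.30 ± 0.10 (SE). RNA polymerase I genes, which serve the synthesis of ribosomal RNA, had 5 of 10 above 0 and a median of 0.01, with Polr1c at 0.25 ± 0.11 and Polr1a at -0.22 ± 0.10. Of 18 genes that control ribosome synthesis or TOP translation 11 were lower, with a median of -0.03. In that list Eif4ebp2, a repressor of cap-dependent initiation, averaged 8.85 ± 0.14 against 9.30 ± 0.25 (SD, n = 3 each), and Larp4, an RNA-binding protein, differed by -0.30 ± 0.11. These were the 2 of the 18 that were lower at an unadjusted p below 0.05 in limma, where 2.12% of all genes were lower. In both every treated array lay below every untreated one, which held for 3 of the 18 and for 4.18% of all genes. Nascent-chain and targeting genes had 10 of 13 above 0 and a median of 0.10, with Naca at 0.25 ± 0.09.

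**Figure D4:**
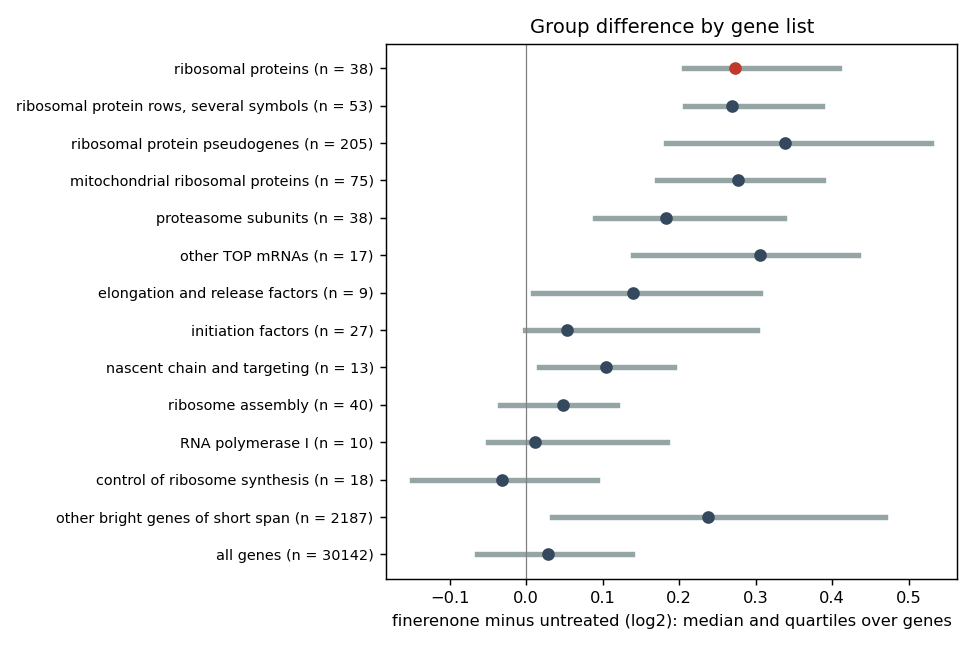
Points are the medians and bars the quartiles of the finerenone minus untreated differences (log2, x axis) over the genes of each list, with the number of genes in brackets. Cytosolic ribosomal proteins (0.27), mitochondrial ribosomal proteins (0.28) and other TOP mRNAs (0.31) lie to the right, RNA polymerase I (0.01) and the control list (-0.03) beside all genes (0.03).

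Markers of cell types were read beside these results. Heart muscle was plain in every array, since 9 measured cardiomyocyte genes averaged 16.93 to 17.15 in treated and 16.97 to 17.26 in untreated hearts, with 5 of 9 above 0. The 4 atrial markers (Sln, Myl7, Myl4 and Nppa), which bear on the ventricle label, averaged 8.78, 9.03 and 8.45 in treated and 8.43, 8.67 and 8.50 in untreated hearts. Of these 3 of 4 were higher (median 0.25), and their mean, like the ribosomal protein signal, was highest in finerenone replicates 2 and 1 and lowest in untreated replicate 1. All 10 measured endothelial markers were lower in treated hearts, with list means of 11.08 to 11.38 against 11.32 to 12.03, and untreated replicate 1, which was lowest for most ribosomal proteins, had the highest endothelial mean. Of 12 macrophage and monocyte markers 11 were higher, with list means of 8.40 to 8.78 against 8.13 to 8.53, and 9 of 10 smooth muscle and pericyte markers were lower (9.13 to 9.36 against 9.25 to 9.64). Of 8 fibroblast markers 6 were higher (10.66 to 11.11 against 10.53 to 11.03). The part of cell makeup, or of atrial tissue, in the ribosomal protein values was not tested. In whole ventricle, fewer cells of a type and less RNA per cell cannot be told apart.

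**Figure D5:**
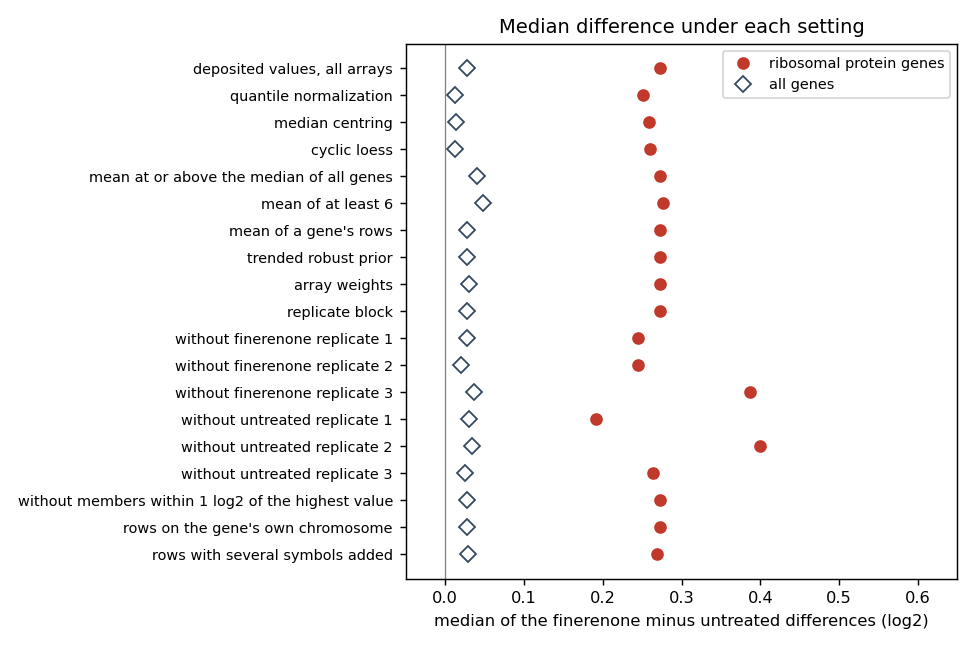
Red points are the median finerenone minus untreated difference (log2, x axis) over the ribosomal protein genes and open diamonds the median over all genes, for the deposited values and each alternative setting. The red points stay above 0 in all 18 alternatives, from 0.19 without untreated replicate 1 to 0.40 without untreated replicate 2, and the diamonds stay below 0.05.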

How the data were processed

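The authors deposited log2 signals per probe set, and the submitters' processing notes name RMA, the Transcriptome Analysis Console and the Affymetrix Expression Console. RMA is a method that corrects background, makes arrays comparable and summarises probes. The sources used here give neither versions nor the annotation build. RNA integrity numbers were above 7.3, per the labels' protocols. Of 72688 rows, 65956 were transcript clusters, of which 30604 had 1 distinct symbol, 2146 several and 33206 none in the platform annotation. Symbols other than the members' were updated by Entrez identifier to RefSeq (GRCm38.p6), giving 30142 genes with no filter on dim genes.

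Groups came from the sample titles. The test was limma's (version 3.58.1, R 4.3.3; lmFit, then eBayes, no covariate, two-sided, Benjamini-Hochberg over all genes); the 3 arrays per group limit the precision. On simulated data with 30142 genes, limma called 64 of 100 genes changed by 1 log2 unit and 97 of 100 changed by 2. It also called 4 unchanged genes. The simulated noise was independent between genes, and the largest member difference was 0.94. The simulation therefore does not give the power for differences of the members' size. A fixed rule named 22 members: chosen genes, the 5 largest and 5 smallest differences, the 3 brightest, dimmest and most variable; of each list it named the 2 genes with the smallest p. Other names were chosen with their values seen. Members and lists were chosen with earlier results of these data known, and the motifs, level and span classes after the data were seen. Alternatives were other scalings, filters, row choices, variance priors, weights per array, a block for the replicate number and each array left out.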

Additional observations from a re-analysis of the deposited data

How the results depend on the processing

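The median difference over members was above 0 in all 18 alternatives and moved by less than the spread between arrays (SD 0.191), and 0 members passed the adjusted threshold in any of them. Members at an unadjusted p below 0.05 in limma, 10 with the deposited values, were 6 after quantile normalization and 2 to 18 with single arrays left out. Adding the 53 rows with several symbols, chosen after the data were seen, gave 22 such rows and 89 of 91 above 0, counts that are larger by construction. No member had a mean within 1 log2 unit of the highest value, so leaving such members out changed nothing. Signs turned after quantile normalization for Rpl6l (-0.0691), Rplp0 (-0.0142), Rps26 (-0.206) and Rps29 (-0.0662), after cyclic loess for Rpl6l (-0.0630) and Rps26 (-0.0405), after median centring for Rpl6l (-0.00466) and with array weights for Rpl39l (0.0128); the cause was not tested. With single arrays left out, Rpl11 ran from -0.0589 to 0.141, Rpl39l from -0.0818 to 0.0880, Rpl41 from -0.0189 to 0.524, Rpl6l from -0.133 to 0.131 and Rps26 from -0.163 to 0.217. Same-numbered arrays were not taken as pairs in the main fit, and the correlations of their deviations over all genes were -0.15, 0.06 and 0.06. With the replicate number as a block, 12 members were higher at an unadjusted p below 0.05 in limma, against 5.69% of all genes. No member had an adjusted p below 0.05 in that fit. The block lowered the SE of some members (Rps27l, 0.308 to 0.136) and raised that of others (Rpl11, 0.126 to 0.145). Whether same-numbered mice had more in common was not tested. The planned comparison of Rpl3l with Rpl3 was not run, because Rpl3 has no row of its own, and that of Rpl39l with Rpl39 is not given, because Rpl39l lay at background. The 10 members that never exceeded the 95th percentile of the negative controls are limited by low signal. Rpl22 exceeded it in only 2 of 6 arrays, Rps10, Rpl10a and Rpl31 in 3 each and Rps24 in 5.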

Other observations

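Pseudogenes of ribosomal proteins have rows of their own on the array. Of 205 such rows with 1 symbol, 192 (93.7%) had higher signal with finerenone, against 58.2% of all genes (median difference 0.34 on the log2 scale). At an unadjusted p below 0.05 in limma 60 (29.3%) were higher and 0 lower, where 5.69% of all genes were higher and 2.12% lower. Among bright genes of short span, a class that does not leave out such pseudogenes, 80.1% were above 0 and 22.8% higher at that p. After adjustment 0 of the 205 passed the threshold (smallest adjusted p = 0.597). Rps15a-ps1 measured 6.36, 6.31 and 6.12 in treated hearts against 5.47, 5.62 and 5.70 in untreated ones, a difference of 0.66 ± 0.10 (SE), and the groups did not overlap. Rpl31-ps6 measured 9.09, 9.26 and 9.08 against 8.67, 8.66 and 8.80, again without overlap. Probes of such copies can bind RNA of the parent gene, and how far they did was not tested.

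The 3 rows of Rps26 went together only in part. The 2 bright rows differed by 0.03 and 0.01 between the groups, while the third, at a mean signal of 3.85 in treated and 3.59 in untreated hearts, lay below the negative controls.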
